A study of Mus musculus with 11 samples.

Results

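The G1 cell-cycle genes described here are 10 genes of the mouse: the D-type cyclins Ccnd1, Ccnd2 and Ccnd3, the cyclin-dependent kinases Cdk4 and Cdk6, the kinase inhibitors Cdkn1b, Cdkn1c and Cdkn2c, and the pocket proteins Rb1 and Rbl1. They were taken by gene symbol from 2 tables of normalized counts, each with 20475 genes, and all 10 were found once in both tables. The tables came from RNA-seq of E12.5 embryos, in which loss of Kif20a, a kinesin that acts late in mitosis, was compared with wild type. The labels name the tissue forebrain and the study's text names the cortex.

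The germline comparison held 3 libraries labelled Wild Type and 3 libraries of Kif20a knockout embryos. The knockout allele carried a LacZ and neo cassette, came from a single embryonic stem cell clone and was bred onto C57BL/6J. The inducible comparison set 3 knockout libraries against 2 labelled wild type. There the knockouts were Nestin-CreERT2; Kif20a fl/fl embryos, in which the Nestin promoter limits the recombinase to neural stem and progenitor cells and tamoxifen starts it. Pregnant dams of this cross received tamoxifen on consecutive days of mid-gestation. In the study's text the wild types are littermates, in which case both arms were exposed to it. No tamoxifen is described for the germline comparison. The study's text describes wild-type littermates of this cross as Kif20a fl/fl without the recombinase, in which case both arms share the floxed alleles. Whether any library pooled embryos, and which litter each came from, is not given in the sources used here, so P values measure only the spread between these libraries.

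Cells decide in G1 whether to divide again. D-type cyclins bind Cdk4 and Cdk6, and the active kinases phosphorylate the retinoblastoma protein Rb1 and its relative Rbl1 (p107), which releases E2f factors to switch on genes of DNA synthesis. Inhibitors of the Cip/Kip family (Cdkn1b, or p27, and Cdkn1c, or p57) bind cyclin and kinase complexes, while Cdkn2c (p18) belongs to the INK4 family, whose members bind Cdk4 and Cdk6 directly. In the embryonic cortex these genes are known for setting the pace of progenitor division, and p27 and p57 for cell-cycle exit.

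E2f sites in promoters are where the pocket proteins act, so the reference promoters of the 10 genes were searched for a set of E2f-type motifs (TTTCCCGC, TTTGGCGC, TTTCGCGC and TTTGCCGC, on both strands). The windows ran from 250 bases before to 50 bases after the transcription start in the RefSeq annotation of GRCm38.p6. Windows were found for 6 of the 10 genes (Ccnd3, Cdk4, Cdk6, Cdkn1b, Cdkn2c and Rbl1). Only that of Rbl1 held a match, against 2.26% of all 32851 windows. Of 13 E2f target genes with a window, 7 held one (Cdc6, Cdt1, Mcm3, Mcm5, Mcm6, Mcm7 and Pola1). The sites of Rbl1 and of 3 of these replication genes follow, 30 bases each on the gene's own strand, with the motif or its reverse complement in capitals. Each was picked because it holds a motif, so the likeness of the capitals follows from the search. A match is a description of letters, not of a bound site. In the Mcm6 letters printed, 2 motifs overlap, and the capitals mark 1 of them. A further Mcm6 site (TTTGGCGC) is not printed.
Rbl1 (chr2:157204534-157204563, minus strand): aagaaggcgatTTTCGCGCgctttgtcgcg
Mcm6 (chr1:128359797-128359826, minus strand): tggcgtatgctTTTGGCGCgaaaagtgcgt
Cdc6 (chr11:98908002-98908031, plus strand): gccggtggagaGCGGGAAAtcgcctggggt
Pola1 (chrX:93632275-93632304, minus strand): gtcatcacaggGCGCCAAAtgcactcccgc

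Kif20a itself followed the labels. It was 2456, 2295 and 2680 normalized counts in germline wild types, against 409, 374 and 503 in the knockouts, 17.3% of the wild-type mean. In the inducible libraries it was 4760 and 4844 in the wild types, against 3125, 2915 and 2853 in the knockouts, 61.7% of the wild-type mean. The study's text places the germline remainder in the first exons, as the cassette disrupts the full-length transcript. For the inducible remainder it proposes varied recombinase levels between cells, in which case the shares are unlike measures. Germline knockout replicate 2 stood apart from every other germline library, at 91.2 on a principal component that held 58.0% of the variance against -38.4 to 3.84 for the others. Genes of hypoxia and glycolysis were high in germline knockout replicates 1 and 2, at a median of 2.28 and 2.75 (log2) over the wild-type mean, and at 0.24 in replicate 3. Their summed level was 26167 to 27629 normalized counts in the wild types, against 84214, 117369 and 32026 in the knockouts, and 14 of the 16 genes listed were called, all higher. Of all 13938 germline genes tested, 289 were called higher. The list was chosen with earlier results of these data known, so its many calls are not independent support. In the inducible comparison all 3 knockouts expressed Y-linked genes (summed level 2389 to 3209 normalized counts) and the 2 wild-type libraries did not (1.96 and 4.24), so embryo sex and genotype cannot be told apart there. In the germline comparison 2 of the 3 wild types and 1 of the 3 knockouts expressed them. The summed levels there were 1714, 9.83 and 4582 in the wild types, against 4.49, 0 and 1376 in the knockouts. Knockout replicates 1 and 2, those with high hypoxia genes, were thus the knockouts without Y-linked expression. The cortical markers Emx1, Emx2, Lhx2 and Pax6 were present in all 11 libraries.

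Calls follow the thresholds of the study, 1.5-fold or more in either direction together with an unadjusted P of 0.05 or less, here from limma on log2(normalized count + 1). Ccnd2 was the 1 gene of the 10 that passed in the germline comparison, and it fell. Across all 13938 genes tested, 2.74% passed in either direction and 0.667% passed as lower. After Benjamini-Hochberg adjustment over all genes none of the 10 passed at 0.05 in either comparison, while 1 gene (0.00717%) in the germline table and 5 (0.0355%) in the inducible table did. None of the 10 passed both thresholds in the inducible comparison, where 1.29% of 14081 genes did. At the unadjusted P alone 1 of the 10 passed in each comparison, Ccnd2 in the germline and Cdk6 in the inducible, against 5.39% and 6.01% of all genes. The median log2 fold change of the 10 genes was 0.01 in both comparisons, with 6 higher and 4 lower in the germline and 5 and 5 in the inducible. Over all genes it was -0.04 and -0.002.

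**Figure D1:**
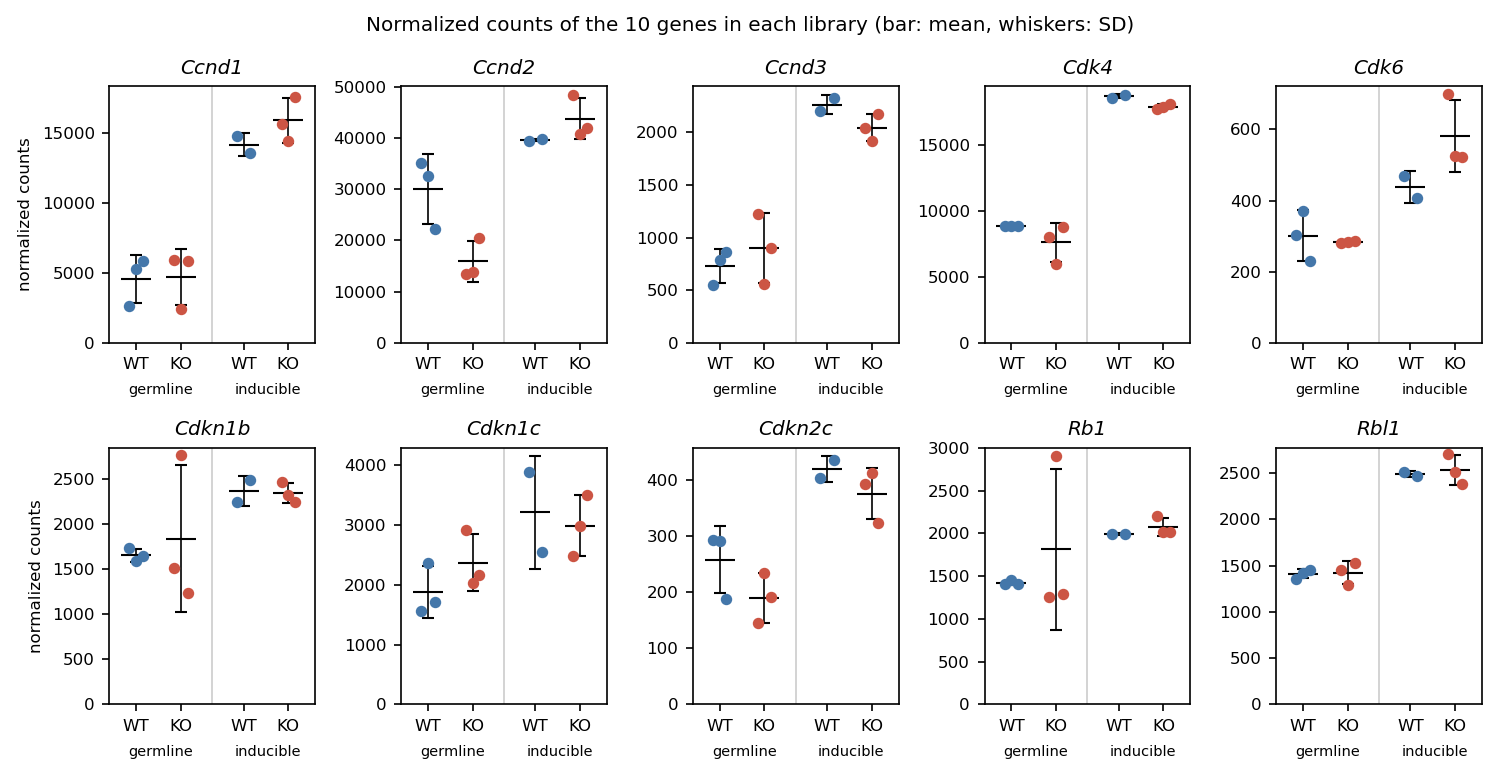
Normalized counts (y axis, linear, from 0) of each of the 10 genes, with 1 point per library, wild-type in blue and knockout in red, and the mean and SD as black bars. The germline and the inducible tables were normalized separately, so levels compare only within each panel side. Ccnd2 in the germline knockouts (13382 to 20528) lies below every wild-type library (22332 to 35206).

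Ccnd2 encodes cyclin D2, whose mRNA is known to be carried into the basal processes of radial glia, the progenitors that span the cortical wall. Its germline values were 35206, 32666 and 22332 normalized counts in the wild types, against 13382, 13788 and 20528 in the knockouts. The groups did not overlap, but wild-type replicate 3 and knockout replicate 3 lay close together. Means were 30068 ± 6819 (SD, n = 3) and 15900 ± 4014 (SD, n = 3). This was a log2 fold change of -0.92 ± 0.25 (SE, 95% confidence interval -1.50 to -0.34, limma adjusted p = 0.779). An exact permutation test over the 6 libraries gave p = 0.1, two-sided, the smallest that 3 against 3 libraries allow. Ccnd2 was called in each fit that left out 1 library (6 fits, -1.12 to -0.79, adjusted p 0.212 to 0.998) and under each of 9 other settings (-0.92 to -0.82). The 2 knockouts with high hypoxia genes, replicates 1 and 2, were the 2 with the lowest Ccnd2, at -1.14 and -1.10 (log2) from the wild-type mean, and replicate 3 was at -0.52. With both left out, a choice made after the data were seen, replicate 3 was the lone knockout and was assumed to vary like the wild types. That fit returned the value of replicate 3 itself, -0.52, which was already short of the 1.5-fold threshold (0.58). It therefore cannot show what replicates 1 and 2 contribute. Replicates 1 and 2 were also the knockouts without Y-linked expression (4.49 and 0 normalized counts, against 1376 in replicate 3). Wild-type replicate 2 had none either (9.83). With the Y-linked level as a covariate the Ccnd2 log2 fold change was -0.85. The parts of hypoxia and of embryo sex in the Ccnd2 values were not tested. Neuron markers did not move alike in these libraries, with a median of -1.05 in replicate 1, 0.92 in replicate 2 and -0.82 in replicate 3. The median of 9 radial glia markers was 0.21, -0.01 and 0.05 in the knockouts, with 6 of the markers higher, 3 lower and 1 called, as lower. Markers of region also moved in these libraries. The median of cortical markers was -0.67 in replicate 1, 0.69 in replicate 2 and -0.15 in replicate 3, and that of diencephalon markers was 2.82, 0.24 and -0.15. Cortical hem and choroid plexus markers had medians of 0.61, 0.97 and 0.57, against -0.34 to 0.38 in the wild types, with 9 markers higher and 1 lower. Of these 10 markers 4 were called as higher and 1 as lower, against 2.74% of all genes called. The summed levels of the markers overlapped (6518 to 8296 normalized counts against 6198 to 8759). In the inducible knockouts their medians were -0.24, -0.32 and -1.17, against -0.16 and 0.16 in the wild types. There all 10 markers were lower and 1 was called. Summed diencephalon markers were 4686 normalized counts in replicate 1, which had the lowest Ccnd2, against 1107 to 2187 in the wild types and 1821 and 1613 in the other knockouts. The part of these markers in the Ccnd2 values was not tested. In bulk tissue, fewer cells of a type and less RNA per cell cannot be told apart.

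In the inducible comparison Ccnd2 was 39438 and 39772 normalized counts in the wild types, against 48337, 40849 and 42038 in the knockouts. Here every knockout was above both wild types, though replicates 2 and 3 by little. The log2 fold change was 0.14 (95% confidence interval -0.06 to 0.33, limma adjusted p = 0.863), which was not called. The difference between both knockout effects, germline minus inducible, was fitted in 1 model over all 11 libraries. For Ccnd2 it was -1.06 ± 0.30 (SE, 95% confidence interval -1.74 to -0.38, limma adjusted p = 0.773), the only one of the 10 past both thresholds, against 3.17% of 13741 genes, 0.902% with a negative difference. With germline knockout replicates 1 and 2 left out it was -0.66, a value that rests on replicate 3 as the lone germline knockout.

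Ccnd1 encodes cyclin D1, which is abundant in apical progenitors. Its germline values were 2622, 5299 and 5837 normalized counts in the wild types, against 5903, 2428 and 5848 in the knockouts. Wild-type replicate 1 and knockout replicate 2 were low together and the other 4 lay between 5299 and 5903, so both groups covered the same range. Its log2 fold change was 0.02 ± 0.43 (SE, 95% confidence interval -1.01 to 1.04), an interval that runs from 0.498-fold to 2.05-fold. Its direction turned under quantile normalization (-0.018) and when knockout replicate 1 or 3, or wild-type replicate 1, was left out. Ccnd1 in the inducible libraries was 14773 and 13608 in the wild types, against 15668, 14473 and 17618 in the knockouts, a log2 fold change of 0.16 ± 0.09 (SE, limma adjusted p = 0.863), with overlapping groups.

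Ccnd3, the D-type cyclin with the lowest level per kb here, was 549, 786 and 861 normalized counts in germline wild types, against 1226, 561 and 906 in the knockouts. Like Ccnd1, it was lowest in wild-type replicate 1 and knockout replicate 2. The log2 fold change was 0.25 ± 0.31 (SE, limma adjusted p = 0.860). Among inducible libraries it was 2200 and 2325 in the wild types, against 2043, 1918 and 2177 in the knockouts. Those groups did not overlap, with all knockouts lower, and the log2 fold change was -0.15 ± 0.07 (SE, limma adjusted p = 0.832).

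Cyclins can be set against each other only per length of transcript, here as normalized counts per kb of annotated exon. On this scale Ccnd2 made up 86.7%, 76.4% and 66.8% of the D-type cyclin RNA in the germline wild-type libraries, and 52.5%, 72.9% and 64.7% in the knockouts. These ranges overlapped. The summed level of the 3 cyclins was 7120, 7496 and 5860 per kb in the wild types, against 4470, 3317 and 5566 in the knockouts, so all knockouts were below all wild types. Within the inducible table the sum was 11844 and 11646 in the wild types, against 13574, 11886 and 13050 in the knockouts, all above the wild types. No test was made of these sums. The ratio of Ccnd2 to Ccnd1 was 8.81, 4.04 and 2.51 in the germline wild types, against 1.49, 3.73 and 2.30 in the knockouts. In the inducible set this ratio stayed between 1.57 and 2.02. The germline wild-type libraries thus differed among themselves by more than all 5 inducible ones.

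**Figure D2:**
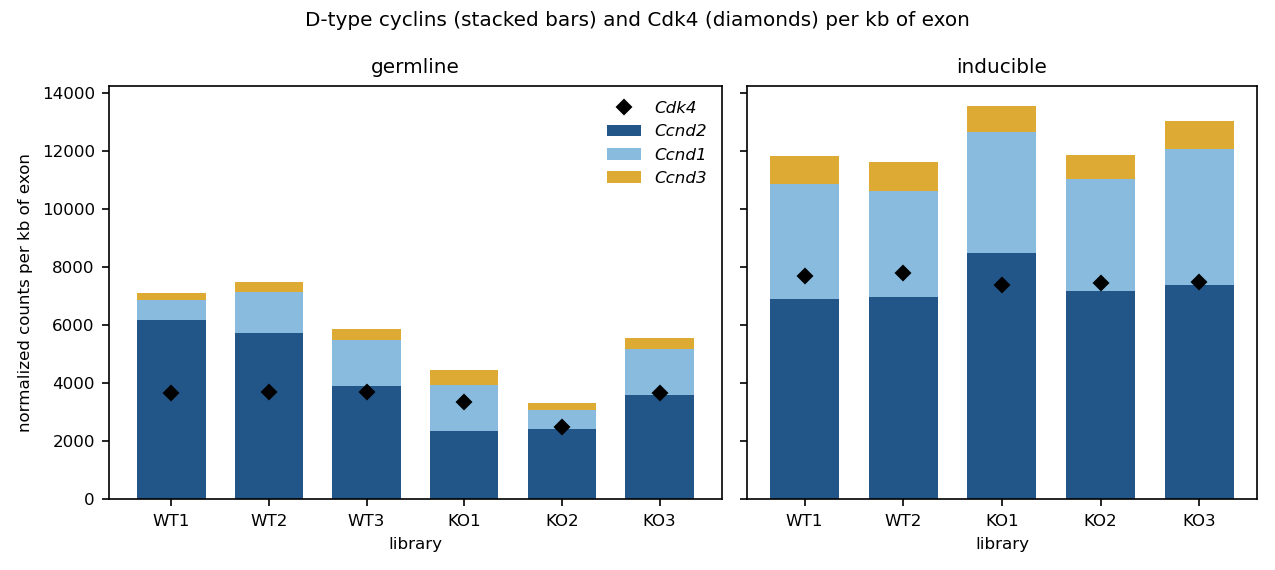
Stacked bars give Ccnd2, Ccnd1 and Ccnd3 and diamonds give Cdk4 in each library, in normalized counts per kb of exon (y axis, linear, from 0). In the germline panel the Ccnd2 bar passes the Cdk4 diamond in all 3 wild-type libraries and in no knockout. The order in wild-type replicate 3 depends on the exon length used, and the levels lie close in knockout replicates 2 and 3. The 2 panels were normalized separately and do not compare in height.

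Cdk4, which with Cdk6 is the catalytic partner of the D-type cyclins, was 8835, 8852 and 8866 normalized counts in germline wild types, against 8027, 5996 and 8809 in the knockouts. All 3 knockouts lay under the narrow wild-type range, replicate 3 by very little, and replicate 2 far under it. Its log2 fold change was -0.24 ± 0.16 (SE, 95% confidence interval -0.62 to 0.15, limma adjusted p = 0.789). Without replicate 2 it was -0.07 (limma adjusted p = 0.798). Cdk4 and Ccnd2 were the 2 genes of the 10 whose germline groups did not overlap, both lower, against 13.5% of all genes without overlap and 7.55% without overlap and lower. In the inducible libraries Cdk4 was 18544 and 18759 in the wild types, against 17735, 17890 and 18044 in the knockouts, again all lower, at a log2 fold change of -0.06 ± 0.05 (SE, limma adjusted p = 0.884).

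Cdk6 was the scarce kinase. Cdk4 took 97.0% to 98.6% of the summed Cdk4 and Cdk6 level per kb in all 11 libraries, with the exon length of Cdk6 from an older annotation that may be short of its full 3′ end. Germline Cdk6 was 304, 371 and 230 normalized counts in the wild types, against 281, 283 and 285 in the knockouts. The knockouts fell within the wild-type range, at a log2 fold change of -0.06 ± 0.21 (SE). Among inducible libraries Cdk6 was 470 and 406 in the wild types, against 698, 524 and 524 in the knockouts, all 3 higher. The log2 fold change there was 0.40 ± 0.14 (SE, 95% confidence interval 0.06 to 0.74, limma adjusted p = 0.825), or 1.32-fold, which passed the unadjusted P but not the 1.5-fold threshold. Non-overlapping groups are common in a comparison of 2 with 3 libraries. They were found for 5 of the 10 genes (Ccnd2, Cdk6 and Rb1 higher, Ccnd3 and Cdk4 lower) and for 22.6% of all genes in the inducible table (10.4% higher, 12.2% lower).

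Of the Cip/Kip inhibitors, Cdkn1b was 1729, 1586 and 1638 normalized counts in germline wild types, against 1514, 2757 and 1237 in the knockouts. Knockout replicate 2 was far above the wild types and the other 2 knockouts were below them. Its log2 fold change of 0.07 ± 0.28 (SE) therefore averaged opposite deviations, and with replicate 2 left out it was -0.27 (limma adjusted p = 0.391). Within the inducible table Cdkn1b was 2241 and 2479 in the wild types, against 2461, 2316 and 2246 in the knockouts, at a log2 fold change of -0.01 ± 0.07 (SE, 95% confidence interval -0.17 to 0.15).

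Cdkn1c was 1553, 2363 and 1710 normalized counts in germline wild types, against 2912, 2030 and 2158 in the knockouts. The groups overlapped through wild-type replicate 2, and the log2 fold change was 0.34 ± 0.21 (SE, limma adjusted p = 0.779). In the inducible set it was 3878 and 2542 in the wild types, against 2472, 2982 and 3497 in the knockouts, where the 2 wild types spanned nearly the whole range. The level of D-type cyclins over that of Cdkn1b and Cdkn1c, both per kb, was 6.01, 4.77 and 4.71 in the germline wild types, against 2.43, 2.00 and 4.01 in the knockouts. All 3 knockouts were below the wild types in this ratio, which includes Ccnd2 as its largest part and was not tested. In the inducible libraries it was 4.74 and 6.26 in the wild types, against 7.46, 5.79 and 5.66 in the knockouts, which overlapped.

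The INK4 inhibitor Cdkn2c was scarce, at 294, 291 and 189 normalized counts in germline wild types, against 145, 235 and 191 in the knockouts. The log2 fold change was -0.44 ± 0.27 (SE, limma adjusted p = 0.779), and the groups overlapped through wild-type replicate 3. Without knockout replicate 2 it was also called, at -0.60 (limma adjusted p = 0.327). Among inducible libraries Cdkn2c was 404 and 437 in the wild types, against 393, 412 and 324 in the knockouts, at -0.17 ± 0.12 (SE).

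Rb1, the retinoblastoma protein, was 1407, 1457 and 1402 normalized counts in germline wild types, against 1252, 2901 and 1287 in the knockouts. As with Cdkn1b, knockout replicate 2 stood alone, at 1.03 (log2) above the wild-type mean, while replicates 1 and 3 were below it at -0.18 and -0.14. Its log2 fold change was 0.23 ± 0.32 (SE), and -0.16 (limma adjusted p = 0.534) without replicate 2. Within the inducible table Rb1 was 1996 and 1987 in the wild types, against 2200, 2016 and 2016 in the knockouts, at 0.06 ± 0.06 (SE, 95% confidence interval -0.08 to 0.20).

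Rbl1 had the smallest SE of the 10 genes in the germline comparison. It was 1358, 1416 and 1455 normalized counts in germline wild types, against 1454, 1287 and 1529 in the knockouts, a log2 fold change of 0.01 ± 0.12 (SE, 95% confidence interval -0.27 to 0.29). In the inducible set it was 2516 and 2470 in the wild types, against 2705, 2515 and 2379 in the knockouts, at 0.02 ± 0.07 (SE, 95% confidence interval -0.13 to 0.17). These intervals lie within the 1.5-fold threshold of 0.58 on either side. In the germline table only Rbl1 and Cdk6 had intervals inside that threshold, while in the inducible table Cdk6 alone had an interval that reached past it.

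**Figure D3:**
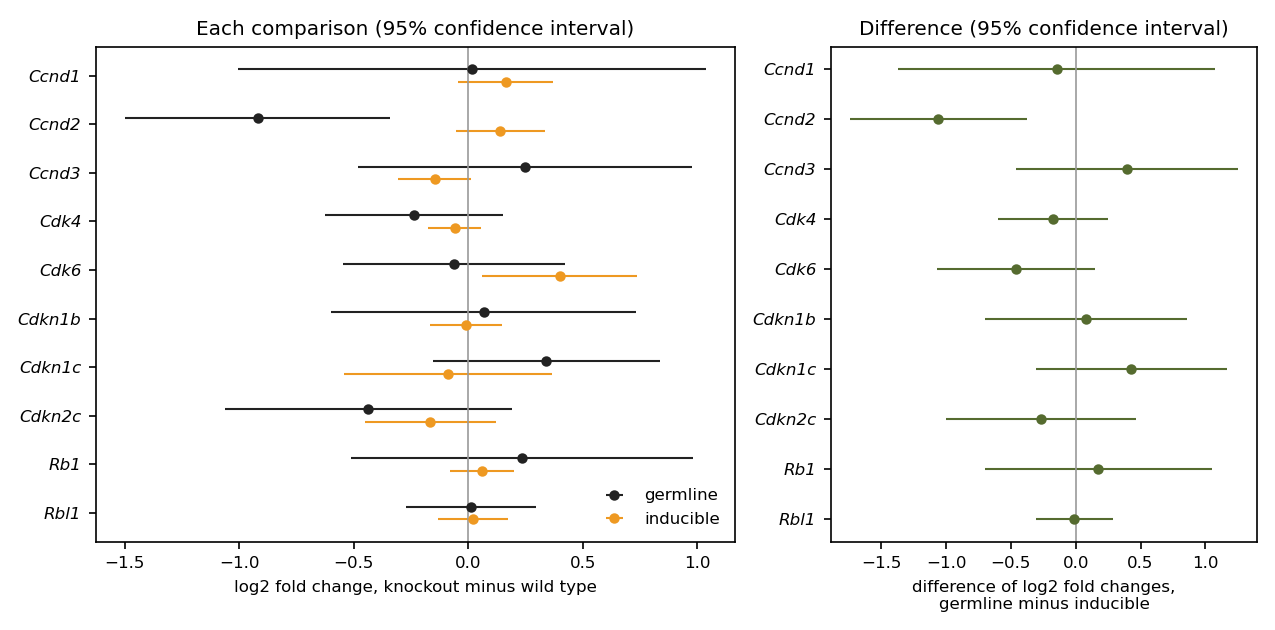
Left, log2 fold change of each gene (x axis, knockout minus wild type) with its 95% confidence interval, germline in black and inducible in orange. Right, the difference between both fold changes with its 95% confidence interval. In the germline comparison and in the difference, Ccnd2 is the 1 gene whose interval does not reach 0 (-1.50 to -0.34 and -1.74 to -0.38), and in the inducible comparison Cdk6 is (0.06 to 0.74).

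The germline knockouts differed from each other in these genes. Replicate 2 was low for Ccnd1 (-0.83, log2 from the wild-type mean), Ccnd2 (-1.10), Ccnd3 (-0.36) and Cdk4 (-0.56) and high for Cdkn1b (0.74) and Rb1 (1.03). In the same library neuron markers were high (0.92), and cranial mesenchyme (-5.07) and microglia (-3.81) markers and E2f target genes (-0.65) were low. Replicate 1 was low for Ccnd2 (-1.14) and Cdkn2c (-0.80) and high for Ccnd3 (0.77) and Cdkn1c (0.66), with neuron markers low (-1.05) and cranial mesenchyme high (1.76). In replicate 3 the largest deviation among the 10 genes was that of Ccnd2 (-0.52). Wild-type replicate 3 lay near it for Ccnd2 (-0.40), Ccnd1 (0.43 in both), Ccnd3 (0.26 against 0.33) and Cdkn2c (-0.42 against -0.40). The same 2 libraries lay apart for Cdk6 (-0.36 against -0.05), Cdkn1b (-0.01 against -0.42) and Cdkn1c (-0.11 against 0.23). Summed cranial mesenchyme markers were 4397 to 8188 normalized counts in the wild types, against 19996, 174 and 10165 in the knockouts. Summed neuron markers were 49800 to 62919 in the wild types, against 26339, 108516 and 32958 in the knockouts. The part of these cell types in the values of the 10 genes was not tested.

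**Figure D4:**
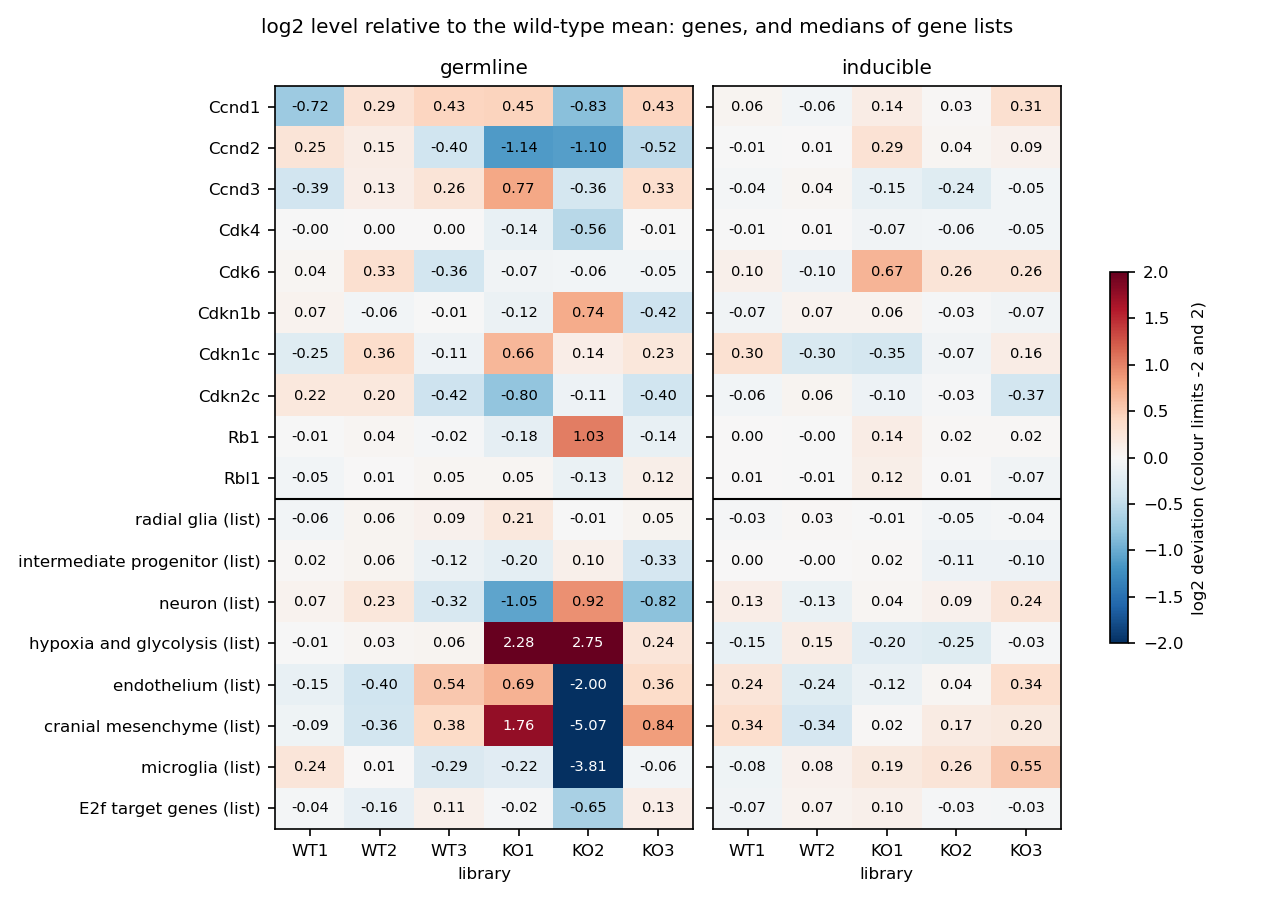
Each cell gives a library's log2 level relative to the wild-type mean of its table (colour from -2, blue, to 2, red), for the 10 genes above the line and for the median of gene lists below it. Germline knockout replicate 2 combines low Ccnd1, Ccnd2 and Cdk4 with high Cdkn1b and Rb1 and a neuron median of 0.92, while Ccnd2 is low in all 3 germline knockouts and in no inducible one.

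The other genes of the G1 to S transition were read from a list of 53, of which 51 were tested, and 0 were called in either comparison in limma. At the unadjusted P alone 2 passed in each, Fbxw7 and Skp1a in the germline and Ccne2 and Cdkn2d in the inducible, a smaller share than the 5.39% and 6.01% of all genes that did. Fbxw7, the ubiquitin ligase subunit that recognises cyclin E, was 768, 916 and 938 normalized counts in germline wild types, against 651, 669 and 755 in the knockouts (-0.33, limma adjusted p = 0.779), all lower. The ligase subunit Skp1a was also lower in all 3 knockouts (-0.34, limma adjusted p = 0.779). Both were named after their values were seen. Of the 51, 37 were lower and 14 higher in the germline comparison, with a median log2 fold change of -0.10. Over all germline genes tested the median was -0.04, and the share of them that were lower is not given here. In the inducible comparison the numbers for the 51 were 24 lower and 27 higher, with a median of 0.01. The median deviation of the 53 was -0.02, -0.31 and 0.07 in the germline knockouts, against -0.09 to 0.11 in the wild types. Only that of replicate 2 lay below the wild types. Of the list's 15 E2f target genes, which encode proteins of DNA replication and nucleotide supply, 14 were lower in the germline comparison (median -0.15) and 7 in the inducible (median 0.01). By library the E2f target median in the germline knockouts was -0.02, -0.65 and 0.13, and only that of replicate 2 lay below the wild-type medians (-0.16 to 0.11).

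Cyclin E, which acts with Cdk2 after the D-type cyclins, is encoded by Ccne1 and Ccne2. Germline Ccne1 was 328, 265 and 374 normalized counts in the wild types, against 244, 97.5 and 422 in the knockouts (-0.56, limma adjusted p = 0.820), and without replicate 2 the log2 fold change was 0.009. Inducible Ccne2 was 1055 and 1093 in the wild types, against 1334, 1216 and 1272 in the knockouts, all higher (0.25, limma adjusted p = 0.740), short of 1.5-fold. Germline Ccne2 went the other way in replicate 2, with 1210, 921 and 1286 in the wild types, against 1060, 420 and 1118 in the knockouts (-0.51, limma adjusted p = 0.795), and was at -0.05 without it.

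Among the other inhibitors Cdkn1a (p21) was 196, 234 and 186 normalized counts in germline wild types, against 250, 455 and 227 in the knockouts (0.53, limma adjusted p = 0.779). Without knockout replicate 2 the value was 0.22 (limma adjusted p = 0.599). Cdkn2d (p19) in the inducible libraries was 952 and 854 in the wild types, against 991, 1056 and 1133 in the knockouts (0.23, limma adjusted p = 0.825), all higher. Cdkn2a and Cdkn2b were too low to be tested. Fbxo4, part of a ubiquitin ligase, had the largest germline value of the 51, at 81.8, 66.6 and 90.6 in the wild types, against 51.7, 29.7 and 73.3 in the knockouts (-0.70, limma adjusted p = 0.779). Those groups overlapped through knockout replicate 3. Its rank depended on single libraries, since Myc passed it without knockout replicate 2 (-0.66 against -0.35) and with the Y-linked covariate (-0.72 against -0.38), and Ccne1 without knockout replicate 3 (-1.04 against -0.99).

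The transcription factor Myc was 135, 199 and 107 normalized counts in germline wild types, against 87.7, 131 and 91.4 in the knockouts (-0.48, limma adjusted p = 0.779). E2f3 had the largest germline value among the E2f factors, their Dp partners and the pocket protein Rbl2 (-0.29, limma adjusted p = 0.831, and 0.03 without knockout replicate 2) and E2f7, a repressor, the largest inducible one (-0.19, limma adjusted p = 0.837). Of the kinase that activates Cdk4, the catalytic subunit Cdk7 was at -0.19 in the germline comparison (0.04 without knockout replicate 2) and its partner Mnat1 was at 0.12 in the inducible, neither passing the unadjusted P.

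Among 13740 other genes, those with log2 deviations nearest each D-type cyclin were named as a description. Each is given with its root mean square difference over the 11 libraries. Those nearest Ccnd2 were Ube2g2 (0.159), Ttyh2 (0.168) and Aif1l (0.176). Because they were picked by nearness, they share its low values in the germline knockouts by construction. For Ccnd1 they were Usp51 (0.143), Syk (0.164) and Relb (0.171), and for Ccnd3 Myh9 (0.0875), Arid3a (0.0941) and Syde1 (0.0978). Ccnd1 and Ccnd3 were nearer each other (0.273) than either was to Ccnd2 (0.691 and 0.743). All libraries of a table share their normalization, so these distances are not independent of it.

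Levels per kb put Ccnd2 above Cdk4 in the 3 germline wild-type libraries (3917 to 6175 against 3674 to 3686) and below it in the 3 knockouts (2347 to 3601 against 2493 to 3663). The order in wild-type replicate 3 depends on the exon length used. In the inducible table Cdk4 led in both wild types (7711 and 7800 against 6918 and 6976), as in knockout replicates 2 and 3, while Ccnd2 led in knockout replicate 1 (8479 against 7374). With the length of the longest transcript, Cdk4 led there too (8639 against 8479). Ccnd1 and Cdkn1c came next in the germline libraries, at 649 to 1578 and 805 to 1508, ranges that overlap. The middle group of Ccnd3, Cdkn1b, Rb1 and Rbl1 lay between 243 and 623 with no stable order, and Cdk6 and Cdkn2c were lowest, at 54.1 to 109.

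On mm9, Ccnd2 is on the minus strand at chr6:127075797-127101066, with 5 exons that share no bases with another gene in the annotation used. Ccnd1 (chr7:152115836-152125774, minus strand) shares 818 exon bases, 21.9% of its own, with Oraov1 on the opposite strand. Ccnd3 (chr17:47642000-47736632, plus strand) shares 353 with Bysl (15.7%), and Cdk4 (chr10:126500590-126504976, plus strand) shares 604 with Tspan31 (25.1%). Cdk6 and Rb1 share 60 and 105 bases with Gm17590 and Rcbtb2. Whether counting used strand is not given in the sources used here, so reads in shared bases cannot be told apart. Oraov1 and Tspan31 were at 214 to 240 and 1125 to 1330 normalized counts in the germline libraries, well below Ccnd1 and Cdk4, while Bysl, at 416 to 706, was nearer to Ccnd3 (549 to 1226), below it in 5 of the 6 libraries and above it in wild-type replicate 1. None of these neighbours was called in either comparison among those tested.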

How the data were processed

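Poly(A) RNA was sequenced on an Illumina instrument by the authors. Reads were aligned to mm9 with TopHat (version 1.2.0 in the submitters' processing notes), counted on RefSeq exons and scaled with edgeR's trimmed mean of M-values. The values deposited for both comparisons are this signal, normalized counts by gene and library, which sum to 13048716 to 15551274 in the germline and 24118520 to 24497307 in the inducible libraries. These totals are after scaling and are not read depths, so no counting interval is given.

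Within each table, genes whose mean reached 10 normalized counts were tested, two-sided, with limma 3.58.1 (R 4.3.3, mean-variance trend) on log2(value + 1), and the difference of effects in 1 model of both tables. Every member, list and rule was chosen with earlier results of these data known. All 10 genes are named, with Kif20a, any called gene of the other G1 to S lists, the largest value of each such list in each comparison, and the 3 genes nearest each D-type cyclin, except a gene that is not reported here. Exon lengths came from GENCODE M1 (NCBIM37). Groups, files and replicate numbers followed the labels. The script was tested on simulated data. Alternatives were the pseudocount, the filter, quantile and median-of-ratios scaling, array weights, no variance trend, a replicate block, a Y-linked covariate and leaving out libraries.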

Additional observations from a re-analysis of the deposited data

Results flagged for a closer look

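The effect of Kif20a loss on Ccnd2 differed between the 2 comparisons by -1.06 (log2, germline minus inducible, SE 0.30, limma adjusted p = 0.773). Ccnd2 was lower in 3 of 3 germline knockouts than in any germline wild-type library, and higher in 3 of 3 inducible knockouts than in both inducible wild types. The difference did not pass adjustment over all 13741 genes. The comparisons differ in allele, in tamoxifen (described for the inducible cross only), in the tissue that loses Kif20a and in when it is lost. They differ in the Kif20a counts left (17.3% and 61.7% of wild type) and in normalization. Those shares are unlike measures. The study's text places the germline remainder in the first exons, short of a full-length transcript. For the inducible remainder it proposes varied recombinase levels between cells. Embryo sex differs too. The inducible knockouts were at 2389 to 3209 normalized counts of Y-linked genes, against 1.96 and 4.24 in their wild types. Both germline groups were mixed, with knockout replicates 1 and 2 and wild-type replicate 2 not expressing these genes. Hypoxia and glycolysis genes were at medians of 2.28 and 2.75 in germline knockout replicates 1 and 2. Medians of cortical hem and choroid plexus markers were 0.61, 0.97 and 0.57 in the germline knockouts, and -0.24, -0.32 and -1.17 in the inducible ones. These differences cannot be told apart. Leaving out germline knockout replicates 1 and 2 left -0.66, a value that rests on 1 germline knockout.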

How the results depend on the processing

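Leaving out single libraries gave 1 to 2 called genes of the 10 in the germline comparison (2 without knockout replicate 2, Ccnd2 and Cdkn2c) and 1 to 2 in the difference of effects (2 without knockout replicate 2, adding Ccnd3, and without wild-type replicate 3, adding Cdk6). Leaving out germline knockout replicates 1 and 2 together, chosen after seeing the data, left a lone germline knockout, so calls among these genes are not counted for it. Array weights gave 2 in the difference (Ccnd2 and Ccnd3). The other G1 to S genes called in the germline numbered 0 to 4 over single left-out libraries (2 without knockout replicate 2, 4 without replicate 3), and 1 (Myc) with the Y-linked level as a covariate. Over all genes the germline count was 382 (75.7% higher), 1044 with array weights (53.6%), 177 with the Y-linked covariate (62.1%) and 157 to 1229 over left-out libraries (157 and 179 without wild-type replicates 1 and 2, 201, 1229 and 1020 without knockout replicates 1, 2 and 3). The share of higher calls was 47.8% without knockout replicate 2 (587 higher, 642 lower) and 27.2% without knockout replicates 1 and 2 (142 higher, 381 lower), where lower calls were the more numerous. The inducible count was 182, 357 with no filter on low values and 126 to 322 over left-out libraries (322 without wild-type replicate 1). The replicate block left 1 germline and 0 inducible genes of the 10 called, and 376 and 163 of all genes, and turned the inducible Cdkn1b to 0.018. It changed no call of the 10. Deviations of same-numbered germline libraries correlated at -0.12, 0.31 and 0.25, and not every germline library correlated best with its own number. In the inducible table the values were -0.35 and -0.05. The 2 inducible wild types, centred on their own mean, mirror each other, so those values cannot decide on pairing. The numbers were not taken as pairs in either table.

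Some values changed sign. In the germline comparison these were Ccnd1 (-0.018 with quantile normalization), Cdkn1b (-0.17 with array weights, -0.11 with the Y-linked covariate, -0.42 without both knockouts), Rb1 (-0.10 with array weights, -0.14 without both) and Cdk7 (0.011 with array weights). In the inducible comparison E2f3 was -0.049 with array weights. In the difference, array weights gave 0.10 for Ccnd1, -0.15 for Cdkn1b, -0.13 for Rb1 and 0.030 for Rbl1, median-of-ratios scaling gave 0.020 for Rbl1, and leaving out both knockouts gave 0.27 for Ccnd1, 0.053 for Cdk4, -0.40 for Cdkn1b, -0.20 for Rb1 and 0.10 for Rbl1. Over single left-out germline libraries Ccnd1 ran from -0.35 to 0.44, Ccnd3 from -0.012 to 0.55, Cdk6 from -0.25 to 0.10, Cdkn1b from -0.27 to 0.31, Rb1 from -0.16 to 0.44, Rbl1 from -0.042 to 0.082, Ccne1 from -1.04 to 0.0089, Cdkn2d from -0.39 to 0.14, E2f3 from -0.47 to 0.028, E2f7 from -0.083 to 0.28 and Cdk7 from -0.31 to 0.043. Over left-out inducible libraries Cdkn1b ran from -0.084 to 0.062, Cdkn1c from -0.39 to 0.22, Rbl1 from -0.027 to 0.065, E2f3 from -0.086 to 0.082 and Myc from -0.031 to 0.30. The same ranges of the difference were -0.51 to 0.28 for Ccnd1, -0.26 to 0.32 for Cdkn1b, -0.22 to 0.38 for Rb1 and -0.064 to 0.060 for Rbl1. The causes were not tested. Read depth behind each value is unknown, so counting error could not be set apart from the spread between libraries.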
